A study of Mus musculus with 13 samples.

Results

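Mymk and Mymx encode the membrane proteins with which myoblasts fuse into multinucleated muscle fibres, and the peaks around both genes were followed in a map of Myf6 binding. The members were all peaks that overlapped a GRCm39 window around either gene by at least 1 bp. The Mymk window was chromosome 2, 26901000 to 27013000 (112 kb), and the Mymx window chromosome 17, 45861000 to 45964000 (103 kb). Together the windows held 61 of the 178951 peaks that 13 lists held on chromosomes 1 to 19, X and Y, 31 at Mymk and 30 at Mymx. Each list was called from a single CUT&RUN library, an assay that releases chromatin fragments at antibody-marked places with a tethered nuclease.

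All libraries came from mouse embryonic fibroblasts that carried 3 transgenes: Pax7-CreERT2, a tamoxifen-inducible Cre at a muscle stem cell gene, the Cre reporter Rosa26-LSL-tdTomato, and CAG-rtTA3, the doxycycline-dependent activator behind a broadly active promoter. All cells, controls included, had been transduced with a lentivirus for doxycycline-inducible mouse Myf6 with an HA tag, so the bound factor is overexpressed and tagged. Cells were kept for 24 h in iMPC medium without doxycycline or with 2 µg/mL of it (+Myf6). The remaining set (+Myf6+F/R/C) also received Forskolin at 5 µM, which raises cyclic AMP, RepSox at 5 µM, a blocker of TGF-β receptor signalling, and the GSK3 inhibitor CHIR99021 at 3 µM. HA and IgG were each profiled in 2 libraries per treatment. A single H3K27me3 library, for a histone mark of Polycomb-repressed chromatin, came from +Myf6+F/R/C cells. The labels do not say that replicates were separate cultures, so spreads may be technical. The labels give no age of the embryos, and neither the RNA of Mymk and Mymx nor the amount of Myf6 was measured in these libraries.

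Myf6, also called MRF4, is a basic helix-loop-helix factor of the myogenic family, which binds E-boxes as a dimer with E proteins and acts late in muscle differentiation and in the mature fibre. Mymk (myomaker, formerly Tmem8c) is a multi-pass membrane protein that is switched on in differentiating myoblasts and is needed on both fusing membranes for their outer leaflets to mix. Mymx (myomixer, also myomerger or minion) is a micropeptide that acts after Mymk to open the fusion pore. Fibroblasts do not normally fuse, and both genes are known as targets of the myogenic factors MyoD and myogenin in muscle cells. In the order of protein-coding genes of the RefSeq table used here, Mymk lay between Slc2a6, a sugar transporter gene, and Adamtsl2, which encodes a matrix glycoprotein. Mymx lay between Slc29a1, a nucleoside transporter gene, and Capn11, a calpain gene. That table is on another build, so gene starts and exons were not placed on the peaks, and a peak in a window is not assigned to Mymk, Mymx or a neighbour. Positions are given from the middle of each window.

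Depth was recovered from the lists as the mean number of fragments per 10 kb. It was 30.6 to 61.9 in the 4 induced HA libraries, 23.7 and 30.6 in the uninduced HA libraries and 8.25 to 22.7 in the 6 IgG libraries. The smallest summit pileup (fragments over the peak's highest point) that could be called against a list's lowest background was 4 to 6 fragments in the induced HA libraries, 4 or 5 in the uninduced HA libraries and 3 to 5 in the IgG libraries. An HA peak that is missing from an IgG list can therefore be a matter of depth, and pileups are set against these limits below.

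Around Mymk, HA peaks numbered 5 and 4 in +Myf6 replicates 1 and 2 and 6 and 4 in +Myf6+F/R/C replicates 1 and 2, against 0 and 1 without doxycycline. Around Mymx they numbered 6 and 5 with Myf6 and 6 and 4 with Myf6 and the compounds, and both HA libraries without doxycycline had none. Every induced HA library thus lay above every uninduced HA library in both windows. The IgG libraries had 1 peak each in the Mymk window, except for 2 in replicate 2 without doxycycline, and none in the Mymx window except for 1 in +Myf6 replicate 2. In the plot of peak numbers, the induced libraries also stand above the mean of the genome, which was 1.20 to 1.62 HA peaks per stretch of 112 kb and 1.10 to 1.49 per stretch of 103 kb in these libraries.

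**Figure D1:**
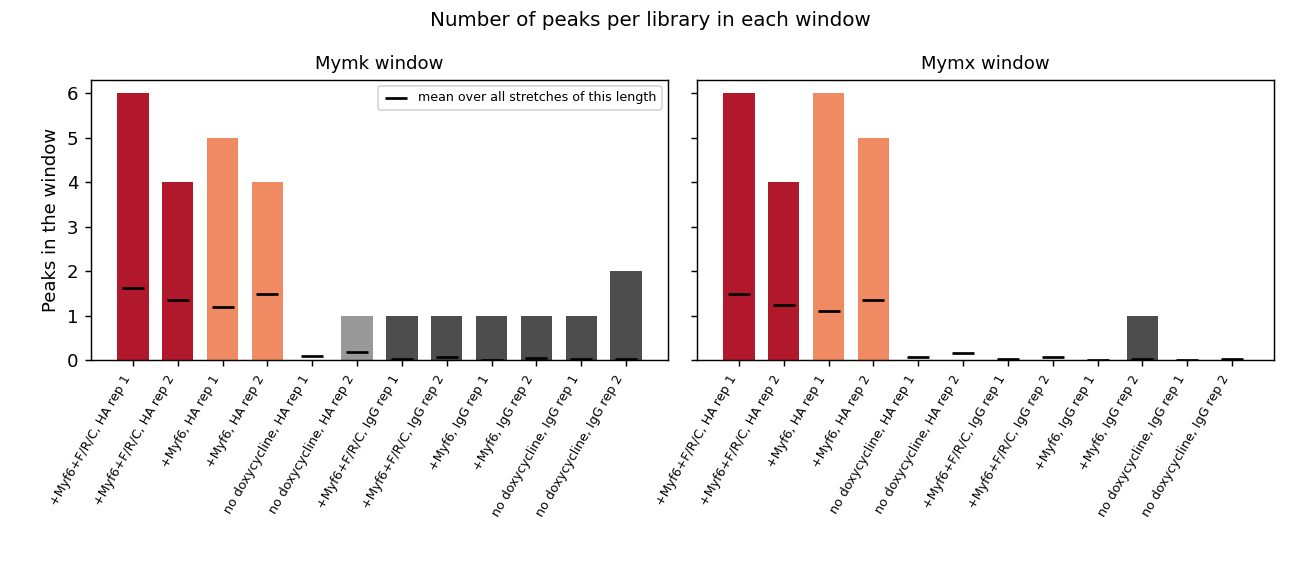
Number of peaks (y axis) in the Mymk and Mymx windows in each of the 12 HA and IgG libraries (x axis), with a dash for the library's mean over all stretches of the window's length. The induced HA libraries have 4 to 6 peaks in each window, and the other libraries 0 to 2.

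In the Mymk window the mean was 4.5 ± 0.707 HA peaks with Myf6 and 0.5 ± 0.707 without doxycycline (SD, n = 2 each), a difference of 4 peaks. With Myf6 and the compounds the mean was 5 ± 1.41 (n = 2), 4.5 above the uninduced cells. In the Mymx window the means were 5.5 ± 0.707 with Myf6, 5 ± 1.41 with Myf6 and the compounds and 0 without doxycycline (n = 2 each). None of these 4 differences could pass a test, since 2 libraries against 2 give an exact permutation p of 0.33 at best (two-sided), the value of all 4, and 0.444 after adjustment over the 8 comparisons of peak number. Separation of this kind was also common elsewhere. Both +Myf6 HA libraries exceeded both uninduced libraries in 39.5% of 23715 stretches of the Mymk window's length and in 37.5% of 25788 stretches of the Mymx window's length. For +Myf6+F/R/C the shares were 42.8 and 41%. At −log10 q of at least 5 the Mymk difference between +Myf6 and no doxycycline shrank to 0.5 peaks and the groups overlapped, while the Mymx difference was 2.5. For +Myf6+F/R/C the differences at that threshold were 2.5 at Mymk and 4.5 at Mymx, and the groups stayed apart.

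HA peaks outnumbered IgG peaks from the same induced cells, with 4.75 ± 0.957 against 1 ± 0 peaks at Mymk and 5.25 ± 0.957 against 0.25 ± 0.5 at Mymx (SD, n = 4 each). The HA library was higher in 4 of 4 pairs at both genes. The exact permutation p was 0.0286 for both, two-sided, the smallest that 4 against 4 allow, but neither passed 0.05 after adjustment (adjusted p = 0.114, exact permutation test). With HA and IgG kept as pairs of the same nuclei, exact sign flips gave 0.125. Such a separation was seen in 36.4 and 34.2% of the stretches of the 2 lengths. When all 8 lists were thinned to the depth of the shallowest IgG library (8.25 fragments per 10 kb), the Mymk window kept 0.805 HA and 0.83 IgG peaks on average. The excess in total peak number there thus ended. The Mymx window kept 1.42 and 0.195. In the Mymk window, every IgG peak of induced cells lay in a single region near the upper end (Mymk-7, below). That region was called in the 4 induced HA lists too. The thinned totals therefore do not compare HA with IgG at the window's other regions. At −log10 q of at least 5 the HA and IgG numbers overlapped at Mymk (difference 1.25) and stayed apart at Mymx (difference 3.5).

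The HA and IgG peaks, 27 at Mymk and 22 at Mymx, fell into 15 merged regions, 7 at Mymk and 8 at Mymx, numbered here from the lower coordinate (Mymk-1 to Mymk-7 and Mymx-1 to Mymx-8). A region with a peak in both HA lists of a treatment and in none of the 8 control lists (6 IgG, 2 uninduced HA) is called a site of that treatment. Of the 15 regions, 4 were sites of +Myf6, against 17.5% of the 71864 regions of the genome, and 6 were sites of +Myf6+F/R/C, against 21%. The 4 sites of +Myf6 (Mymk-3, Mymk-5, Mymx-1 and Mymx-8) were also sites of +Myf6+F/R/C. Sites of both treatments were thus 4 of the 15 regions, against 10.7% of all regions. Across the genome most +Myf6 sites were shared in this way, 7704 of 12587. The other 2 +Myf6+F/R/C sites, Mymk-2 and Mymx-7, each had a peak in 1 of the +Myf6 lists as well. Per window this made 2 sites of +Myf6 and 3 of +Myf6+F/R/C. At least as many were found in 13.5 and 6.73% of stretches of the Mymk length and in 12.1 and 5.73% of stretches of the Mymx length. Regions called in all 4 induced HA lists numbered 6 of the 15, against 14.8% of all regions. Each window had 2 of them without a control peak, a number reached in 6.73% of stretches of the Mymk length and 6.21% of the Mymx length.

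**Figure D2:**
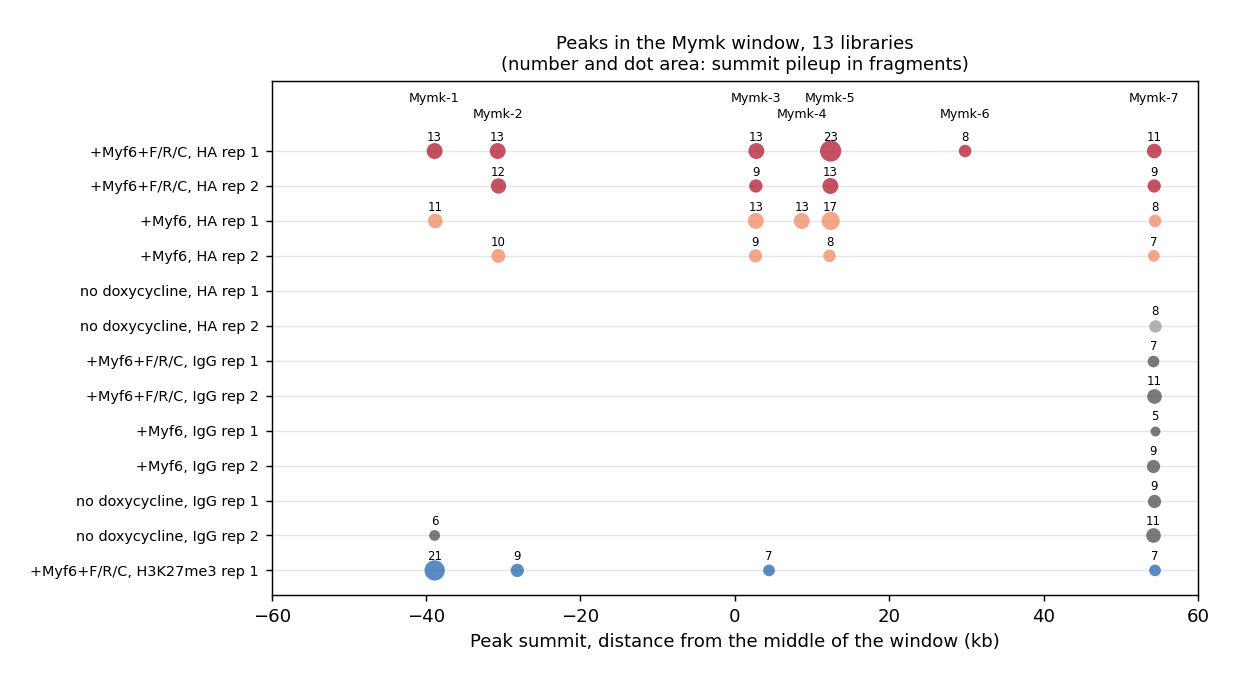
Summits of all 31 peaks in the Mymk window by library (rows) and by distance from the middle of the window in kb (x axis), with the summit pileup in fragments as the number above each dot and as its area. Mymk-3 and Mymk-5 appear in the 4 induced HA rows only, and Mymk-7 in 11 of the 12 HA and IgG rows.

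Mymk-5 (chromosome 2, 26969080 to 26969565), 12.3 kb above the middle of the window, had the highest pileup at Mymk in 3 of the 4 induced HA libraries. In +Myf6 replicate 2 it was below Mymk-2 and Mymk-3. Its summit pileups were 17 and 8 fragments in +Myf6 replicates 1 and 2 and 23 and 13 in +Myf6+F/R/C replicates 1 and 2, with folds over the local background of 5.32, 3.05, 6.34 and 5.25. Per 10 fragments of mean depth, the pileups were 4.01 and 2.62 with Myf6 and 3.71 and 3.18 with the compounds, so the +Myf6 replicates lay on either side of both libraries with the compounds. Within its own list, the peak outranked 84.5% of all peaks of +Myf6+F/R/C replicate 1 but only 0.628% of those of +Myf6 replicate 2. The 4 summits lay within 145 bp.

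Mymk-3 (26959583 to 26960008) lay 2.80 kb above the middle of the window and was the region nearest to it. Pileups were 13 and 9 fragments with Myf6 and again 13 and 9 with Myf6 and the compounds, and folds were 5.64, 4.63, 4.49 and 4.72. Per 10 fragments of mean depth this was 3.06 and 2.94 against 2.10 and 2.20, so both +Myf6 libraries lay above both +Myf6+F/R/C libraries at this region. The difference was -0.48 on the log2 scale, with -0.55 within replicate 1 and -0.42 within replicate 2. Mymk-3 was singled out after the values of the 6 regions called in all 4 induced libraries were seen, and its difference carries no test.

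Mymk-2 (26926079 to 26926496), at -30.7 kb from the middle, was called in 3 induced HA libraries. Its pileups were 10 fragments in +Myf6 replicate 2 and 13 and 12 with the compounds, with folds of 5.09, 4.94 and 4.34. No peak was called there in +Myf6 replicate 1, whose lowest callable pileup was 5 fragments. Mymk-4 (26965613 to 26965922) and Mymk-6 (26986717 to 26986882) were each called in 1 library. Mymk-4 had a pileup of 13 in +Myf6 replicate 1, and Mymk-6 a pileup of 8 in +Myf6+F/R/C replicate 1. Regions called in a single library were common, since 49.8% of all regions were in 1 induced HA list only and in no control list.

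The remaining 2 regions of the Mymk window had control peaks. Mymk-7 (27011135 to 27011514), near the upper end of the window, was called in all 6 IgG libraries, in replicate 2 of the uninduced HA libraries and in the 4 induced HA libraries. Relative to depth, its pileup was higher in each IgG library (3.67 to 13.3 per 10 fragments of mean depth) than in any induced HA library (1.78 to 2.29). The H3K27me3 peak there was small, with 7 fragments or 1.29 per 10 fragments of mean depth. Control peaks of any kind touched 10.7% of all regions and 27.5% of the regions called in all 4 induced HA lists. Mymk-1 (26917829 to 26918319) had pileups of 11 fragments in +Myf6 replicate 1 and 13 in +Myf6+F/R/C replicate 1, and 6 in the IgG library of replicate 2 without doxycycline. Both regions also overlapped H3K27me3 peaks. What the IgG signal contributes to the HA peaks at these regions was not tested.

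**Figure D3:**
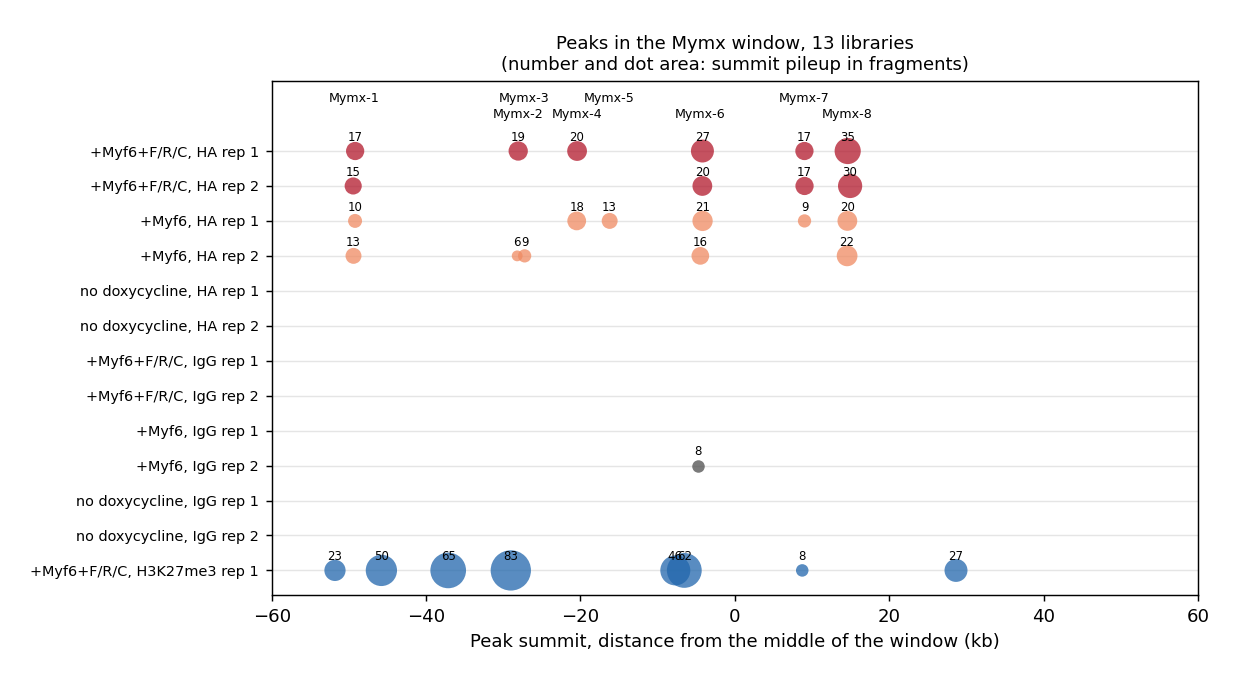
Summits of all 30 peaks in the Mymx window by library (rows) and by distance from the middle of the window in kb (x axis), with the summit pileup in fragments as the number above each dot and as its area. The uninduced HA rows are empty, Mymx-8 (20 to 35 fragments) has the highest HA pileup in 3 of the 4 induced rows and Mymx-6 in the row of +Myf6 replicate 1, and most H3K27me3 peaks lie below the middle of the window.

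Mymx-8 (chromosome 17, 45926625 to 45927588), 14.6 kb above the middle of the Mymx window, had the highest pileup of either window in 3 of the 4 induced HA libraries. In +Myf6 replicate 1, Mymx-6 was higher by a single fragment, with 21 against 20. Pileups at Mymx-8 were 20 and 22 fragments in +Myf6 replicates 1 and 2 and 35 and 30 in +Myf6+F/R/C replicates 1 and 2, with folds of 6.04, 7.80, 6.99 and 5.99. The peak outranked 85.3 and 97.1% of the peaks of the +Myf6 lists and 94.9 and 94.5% of those of the +Myf6+F/R/C lists. Relative to depth the pileups were 4.71 and 7.20 with Myf6 and 5.65 and 7.33 with the compounds, so the groups overlapped once depth was taken into account. The region was 964 bp wide and its 4 summits spread over 390 bp, with that of +Myf6+F/R/C replicate 2 farthest from the others.

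Mymx-1 (45862940 to 45863432), at the lower end of the window, was also a site of both treatments. Pileups were 10 and 13 fragments with Myf6 and 17 and 15 with the compounds. Per 10 fragments of mean depth they were 2.36 and 4.25 against 2.74 and 3.67, and the groups overlapped. Mymx-7 (45921250 to 45921660), 8.96 kb above the middle, was a site of +Myf6+F/R/C with pileups of 17 in both replicates and folds of 4.99 and 5.05. In +Myf6 cells it was called in replicate 1 only, with a pileup of 9 and a fold of 3.95, and the 3 summits lay within 12 bp. Relative to depth, both libraries with the compounds (2.74 and 4.15) lay above +Myf6 replicate 1 (2.12), and replicate 2, with no peak, has no value to compare.

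Mymx-6 (45907605 to 45908432) lay nearest to the middle of the window, at -4.48 kb, and was called in all 4 induced HA libraries with 21 and 16 fragments under Myf6 and 27 and 20 with the compounds. It was not counted as a site, because an IgG peak of +Myf6 replicate 2 with 8 fragments touched it. That IgG peak overlapped the HA peak of +Myf6+F/R/C replicate 2 by 20 bp and none of the other 3 HA peaks, and its summit was 341 to 630 bp from theirs. Expected pileups at Mymx-6 were also the highest among the HA peaks of the window, 5.44 in both libraries with the compounds, and its folds were 3.26 to 4.59. Relative to depth, both +Myf6 libraries (4.95 and 5.24) lay above both libraries with the compounds (4.36 and 4.89), a difference of -0.14 on the log2 scale. As at Mymk-3, this separation was picked out after the values were seen, and the difference carries no test.

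The 4 regions left in the Mymx window were called in 1 or 2 libraries. Mymx-4 (45891946 to 45892188) had pileups of 18 and 20 fragments in replicate 1 of +Myf6 and of +Myf6+F/R/C and no peak in either replicate 2. Mymx-5 (45896192 to 45896352) was called in +Myf6 replicate 1, with 13 fragments. Mymx-2 (45884149 to 45884781) joined a peak of 6 fragments in +Myf6 replicate 2 with a peak of 19 in +Myf6+F/R/C replicate 1, and Mymx-3 (45885116 to 45885373) was called in +Myf6 replicate 2, with 9. Mymx-4, like Mymk-1, was thus called in the replicate 1 libraries of both treatments and in no induced library of replicate 2.

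**Figure D4:**
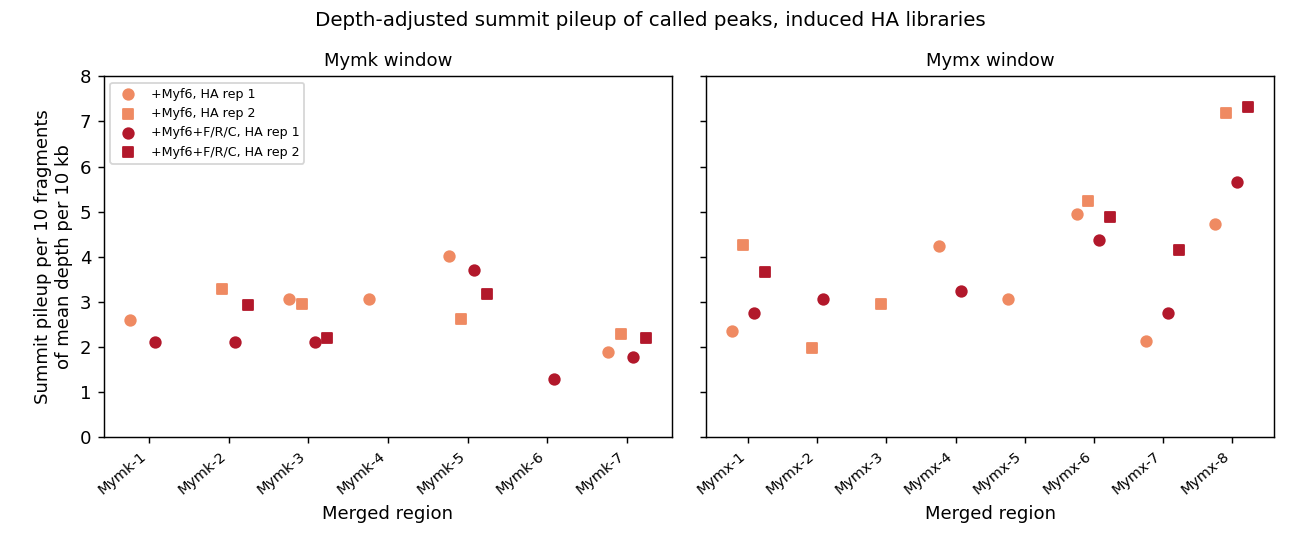
Summit pileup per 10 fragments of mean depth per 10 kb (y axis) for each called peak of the 4 induced HA libraries, by merged region (x axis); circles are replicate 1, squares replicate 2, and a missing symbol means no called peak. The values of +Myf6 and +Myf6+F/R/C overlap at 4 of the 6 regions called in all 4 libraries. At Mymk-3 and Mymx-6 both +Myf6 libraries are higher. The share of such separated regions across the genome is not given here, so the separation is not read as an effect of the compounds.

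With the compounds added, the number of HA peaks at either gene differed by less than the spread between replicates. The difference from +Myf6 was 0.5 peaks at Mymk and -0.5 at Mymx (exact permutation p = 1 for both, two-sided, n = 2 each). At −log10 q of at least 5 the difference was 2 peaks in both windows, 3 against 1 at Mymk and 4.5 against 2.5 at Mymx, with overlapping groups (exact permutation p = 0.667 for both, n = 2 each). Depth differed too, with 61.9 and 40.9 fragments per 10 kb in the libraries with the compounds and 42.4 and 30.6 in those of +Myf6. After thinning to the shallowest of these libraries, without that threshold, the differences were -0.28 at Mymk and -0.57 at Mymx. Over the 3 regions of each window that were called in all 4 induced libraries, the depth-adjusted pileup differed by -0.16 at Mymk (exact permutation p = 0.33, n = 2 each, the smallest possible) and by 0.0017 at Mymx (exact permutation p = 1) on the log2 scale. Within replicates 1 and 2 the differences were -0.25 and -0.067 at Mymk and 0.099 and -0.096 at Mymx. The sign at Mymk turned (to 0.18) when the deposited fold was used in place of the depth-adjusted pileup. No region of either window was called in both +Myf6+F/R/C libraries and in neither +Myf6 library. The share of such regions across the genome is not given here, so this is not read as a trait of the windows.

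How far the control libraries could have shown these peaks was read from scaled pileups. Each induced pileup and its local background were scaled by the ratio of the lists' lowest expected pileups, which takes in depth and fragment length, and set against the threshold of the control list of the same replicate number. In uninduced HA lists without a peak, 8 of 17 scaled values would have been called in the Mymk window and 15 of 21 in the Mymx window. These numbers include regions with control peaks. Among the values called at Mymk were 7.50 and 5.96 scaled fragments at Mymk-1 and 5.45 and 5.04 at Mymk-7. Those called at Mymx included 14.3, 8.31 and 12.4 at Mymx-6. At Mymx-8 all 4 values would have been called, with 10.9 to 16.0 scaled fragments. A signal of that size was thus within reach of the uninduced libraries and was not called there. At Mymk-3 this held for 1 of the 4, and at Mymk-5 for 2 of the 4. Against the paired IgG lists, only 1 of 15 values in the Mymk window and 4 of 20 in the Mymx window would have been called. The numbers depend on the scaling. By depth alone, without fragment length, they were 11 of 17 and 19 of 21 for the uninduced HA lists, and higher at Mymk-3 and Mymk-5. For the IgG lists they were then 2 of 15 and 4 of 20. At Mymx-8 the peak would have been called in 3 of the 4 paired IgG lists. All scaled pileups came from peaks that had been called in the induced HA lists. What depth contributes to the lack of IgG peaks was not tested.

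H3K27me3 differed between the loci in the single library that measured it, which has no replicate. The Mymk window had 4 peaks that covered 1.16% of it, close to the 0.994% of the genome that the mark's peaks covered. At least 4 peaks were found in 14% of stretches of that length. The strongest, with 21 fragments and a fold of 10.1, lay at Mymk-1, and the peak nearest to the middle (26961319 to 26961561) had 7 fragments and lay 1310 bp from Mymk-3. The Mymx window had 8 peaks that covered 7.81% of it. Of these, 7 had their summit in the window, which 2.81% of stretches reached. The widest ran from 45882666 to 45885467 (2802 bp) with 83 fragments, and peaks with 50, 65, 46 and 62 fragments also lay below the middle of the window.

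None of the 3 Mymk sites and 1 of the 3 Mymx sites overlapped an H3K27me3 peak, against 31.2% of the sites of either treatment across the genome. The overlap was at Mymx-7, where an H3K27me3 peak of 8 fragments met the +Myf6 replicate 1 interval over 77 bp and neither interval of the cells with the compounds. Mymx-8 lay 5298 bp and Mymk-5 7518 bp from the nearest H3K27me3 peak. The regions inside the widest H3K27me3 peak, Mymx-2 and Mymx-3, were called in 2 and 1 of the 4 induced HA libraries.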

How the data were processed

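The authors deposited 1 narrow peak list per library and did not pool replicates. Per the submitters' processing notes, MACS2, deepTools and DiffBind were used on build GRCm39, with no version, setting or aligner named there. The deposited columns used were the fold over local background (a ratio, at the summit), the −log10 p and −log10 q of each peak, and the summit position; the deposited score (10 times the −log10 q) was not used. Peaks on chromosomes 1 to 19, X and Y were kept.

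Whole summit pileups and expected pileups were recovered from fold and p (tolerance 0.002 in −log10 p), which worked for at least 99.9% of peaks in each list and for all 61 members. The recovery was tested on simulated data. Depth is the lowest expected pileup divided by the narrowest peak width, per 10 kb, and the Drosophila spike-in was not used. Peak numbers were compared with exact permutation tests, two-sided, with Benjamini-Hochberg adjustment over 8 comparisons (Python 3.11.15, scipy 1.17.1). The windows were also set against all non-overlapping stretches of equal length. Alternatives covered thresholds, window size, thinning, overlap rules, control filters, left-out libraries and the replicate block. Members and lists were chosen with earlier results of these data known.

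Every peak and region in the windows was to be named. The planned use of 47 other fusion genes and of genes with a like pattern needs gene positions on GRCm39 and was not run, and no sequence on that build was used here.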

Additional observations from a re-analysis of the deposited data

Results flagged for a closer look

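In the Mymx window, the IgG library of +Myf6 replicate 2 had 1 peak, whereas the other 3 IgG libraries of induced cells had none, which set it apart from its group. With only 0 and 1 as values, any single peak would do so. Chance sets a sample apart in about 1 in 20 groups, and 4 groups were checked.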

How the results depend on the processing

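The excess of HA peaks in induced over uninduced cells kept its direction under all alternatives, except that at −log10 q of at least 10 the Mymk difference between +Myf6 and no doxycycline was 0. Thinning all lists to the shallowest library turned the Mymk excess of HA over IgG, in peaks over the whole window, to -0.025 and left 1.22 at Mymx.

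The difference in peak number between +Myf6+F/R/C and +Myf6 had no stable sign. At Mymk it was 2 at −log10 q of at least 5, -0.5 with the window narrowed by 30 kb at each end, 0 with it widened by 50 kb, -0.28 after thinning, and -0.5 to 1.5 with single libraries left out (0 without +Myf6 replicate 2). At Mymx it was 2 at −log10 q of at least 5, 0.5 at 10, 0 in the narrowed and -2 in the widened window, -0.57 after thinning, and -1.5 to 0.5 with single libraries left out (0 without +Myf6 replicate 1).

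At −log10 q of at least 5, Mymk had 0 sites of +Myf6 and 1 of +Myf6+F/R/C, and Mymx had 1 of +Myf6 and still 3 of +Myf6+F/R/C. At 10, the Mymk numbers were 0 and 0, and the Mymx numbers 0 and 1. With a single list in place of 2, Mymx had 4 or 5 sites of +Myf6 (4 without replicate 1, 5 without replicate 2) and 3 or 5 of +Myf6+F/R/C (5 without replicate 2).

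The log2 pileup difference turned at Mymk to 0.18 with the deposited fold and to 0.085 in the strongest region. At Mymx it turned to -0.064 with the fold and to -0.045 with the expected pileup subtracted, and ranged from -0.26 (without +Myf6 replicate 1) to 0.26 (without +Myf6 replicate 2), with -0.16 without +Myf6+F/R/C replicate 2. Restricting it to regions without control peaks, chosen after seeing the data, gave -0.20 and 0.073. The causes of these changes were not tested.

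In the main tests, replicate numbers were not taken to pair treatments, since the labels do not state such a pairing. A check of pairing over 71864 regions gave 1 correlation per treatment pair. It was 0.11 for +Myf6 and +Myf6+F/R/C, 0.0094 for no doxycycline and +Myf6, and 0.018 for no doxycycline and +Myf6+F/R/C. Same-numbered libraries of different treatments were matched only for the within-replicate differences, the scaled pileups and the replicate block. The numbers of scaled values that would have been called depend on that matching. By construction, the replicate block left the differences at 4, 4.5, 0.5 and 3.75 peaks at Mymk and 5.5, 5, -0.5 and 5 at Mymx. The log2 pileup differences likewise stayed at -0.16 and 0.0017. With equal numbers of libraries, the mean of the paired differences is the difference of the means. No comparison had been called without the block, and none could be with it. Exact sign flips reach p = 0.5 at best for 2 pairs and 0.125 for 4. Depths of 8.25 to 22.7 fragments per 10 kb limit what the IgG lists can show.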
